A study of Mus musculus with 6 samples.

Results

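Parietal endoderm cells of the mouse embryo were examined in the libraries of embryonic day 5.0 (E5.0), E5.25 and E5.5. They were chosen by their own RNA: a cell counted as parietal endoderm when the laminin genes Lama1, Lamb1 and Lamc1 and the collagen IV genes Col4a1 and Col4a2 together made up 15 or more of every 10000 UMIs. This sum, called the matrix sum here, also had to exceed the visceral sum of Cubn, Apoa1, Ttr, Apoc2 and Apob, and the epiblast genes Pou5f1, Slc7a3, Pim2 and L1td1 had to stay below 5 per 10000. A UMI (unique molecular identifier) stands for 1 captured RNA molecule. The rule found 1549 parietal endoderm cells among 18251 kept cells of these 3 libraries, and among 21856 kept cells of all 6 libraries of the series. Visceral endoderm of the same library, 4369 cells chosen by the mirror rule (a visceral sum of 15 or more and above the matrix sum, with the same epiblast limit), was the reference.

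The study followed embryos across implantation by droplet-based 10x Chromium single-cell RNA sequencing of transcript 3′ ends, with 1 library per stage. Embryos came from B6SJLF1/J females of 7 weeks mated with B6CBAF1/J males, were dissected out of the uterus at these 3 stages and were pooled and dissociated with Accumax and DNase. The labels give no altered allele and no treatment. A 20 µm filter was used on the E5.5 suspension and not on those of E5.0 and E5.25, so stage, filter and library cannot be told apart. No result has a replicate and no test was made: the 95% intervals, exact Poisson for a level, exact conditional binomial for a ratio and exact Clopper-Pearson for a share, cover counting error only.

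Parietal endoderm forms from primitive endoderm, spreads over the inner face of the trophoblast and secretes Reichert's membrane, a thick basement membrane between the yolk cavity and the maternal blood spaces. Its cells are known for making laminin and collagen IV in bulk, and for a move away from the epithelial state that visceral endoderm keeps. Collagen IV chains are hydroxylated and folded in the endoplasmic reticulum by prolyl and lysyl hydroxylases and by the chaperone encoded by Serpinh1 before they can be exported.

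The cells numbered 550 of 5504 kept cells at E5.0 (9.99%, 95% interval 9.21 to 10.8), 317 of 4038 at E5.25 (7.85%, 7.04 to 8.72) and 682 of 8709 at E5.5 (7.83%, 7.28 to 8.42). Visceral endoderm held 1755, 1166 and 1448 cells in the same order. Every set of 3 values below runs E5.0, E5.25, E5.5 unless stages are named. The median depth was 13242, 12393 and 3880 UMIs per parietal endoderm cell and 15274, 15432 and 4169 UMIs per visceral endoderm cell, so the E5.5 cells were the shallowest. Of the 27302 barcodes of that library, 68.1% had under 1500 genes and were not kept. Levels are given as CPM, the UMIs of a gene per 1000000 UMIs summed over the cells of a class in a library. The sums rested on 7928126, 4225787 and 3250843 UMIs in parietal endoderm, and on 29085718, 19148024 and 7300005 UMIs in visceral endoderm.

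Because the rule used them, the levels of the 5 matrix genes only describe the members. Lama1 stood at 3749, 4401 and 2756 CPM in parietal endoderm, against 128, 138 and 112 CPM in visceral endoderm. Col4a1 stood at 2937, 3605 and 2316 CPM in parietal endoderm, against 774, 751 and 539 CPM in visceral endoderm. The median matrix sum was 138, 170 and 79.8 per 10000 in parietal endoderm, against 14.5, 14.8 and 11.7 in visceral endoderm. At E5.5 the members reached down towards the limit: the lower quartiles of the 3 libraries were 83.6, 103.5 and 38.2 per 10000. Near the limit, 6, 2 and 53 members lay inside it at 15 to 20 per 10000 with median matrix sums of 16.1, 18.8 and 17.7. Just outside it lay 2, 3 and 55 cells at 10 to 15, with medians of 14.2, 12.4 and 11.7. A further 63, 18 and 235 cells met both matrix conditions but had 5 or more epiblast UMIs per 10000 and were left out.

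**Figure D1:**
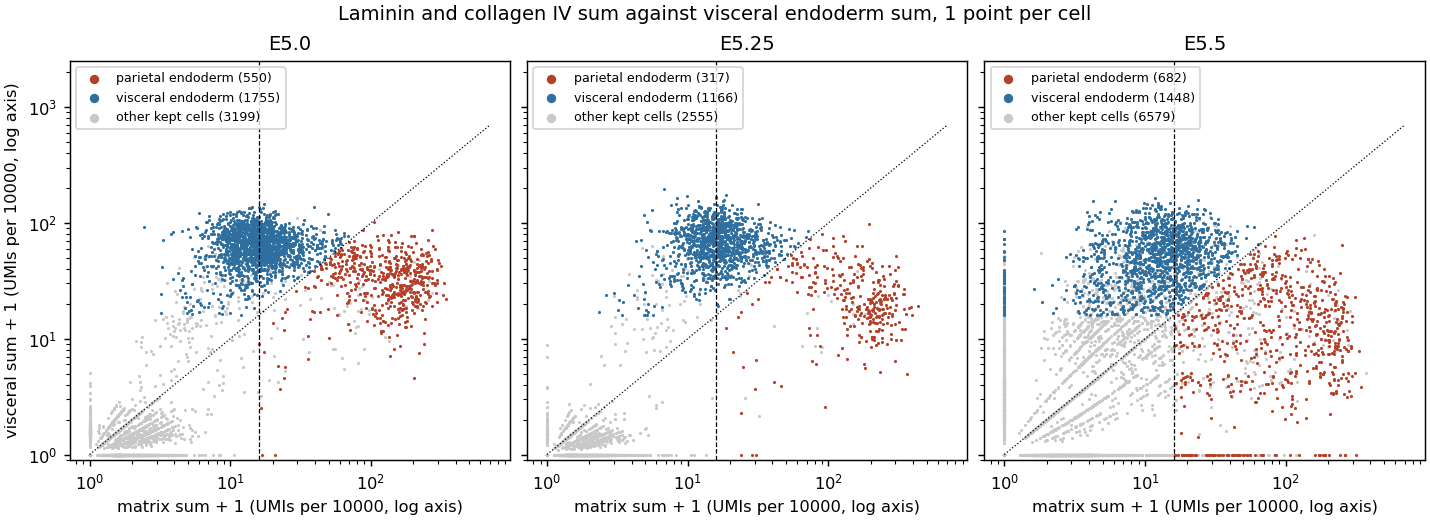
Each point is 1 kept cell, with its matrix sum plus 1 on the x axis and its visceral sum plus 1 on the y axis, both in UMIs per 10000 on log axes. The dashed line is the matrix limit and the dotted line marks equal sums. Red points are the 550, 317 and 682 parietal endoderm cells and blue points the visceral endoderm cells. At E5.0 and E5.25 the red points form a cloud apart from most grey points, and at E5.5 they run on into them.

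Of 15 textbook parietal endoderm markers, which include 3 of the rule genes, all had UMIs in the members of every library, but the intermediate filament gene Vim was close to absent. Vim had 4.79, 3.79 and 11.4 CPM in parietal endoderm, against 2.75, 2.19 and 1.92 CPM in visceral endoderm and 31.8, 19.5 and 22.5 CPM in epiblast cells. Thrombomodulin (Thbd) had 27.2, 58.5 and 68.9 CPM in parietal endoderm, against 0.653, 0.940 and 2.74 CPM in visceral endoderm. Tissue plasminogen activator (Plat) had 62.8, 81.9 and 67.4 CPM in parietal endoderm, against 5.47, 6.32 and 4.79 CPM in visceral endoderm. In Thbd and Plat every library of parietal endoderm lay above every library of visceral endoderm.

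Markers of other cell types were counted in the members as well. The 11 trophoblast markers summed to 2.15, 2.04 and 5.35 per 10000 in parietal endoderm, against 4.89, 4.25 and 5.34 in visceral endoderm. Of the members 36, 19 and 232 (6.55%, 5.99% and 34.0%) had 5 or more, against 716, 379 and 563 visceral endoderm cells (40.8%, 32.5% and 38.9%). A sum of 5 or more was thus not particular to the members. The list holds Eomes, also counted below among endoderm transcription factors, so the sum is not specific to trophoblast. The 10 giant cell markers summed to 0.733, 1.11 and 3.41 per 10000 in parietal endoderm, against 0.473, 0.527 and 1.66 in visceral endoderm. They reached 5 or more in 9, 4 and 102 members (1.64%, 1.26% and 15.0%), against 23, 15 and 115 visceral endoderm cells (1.31%, 1.29% and 7.94%). Prl3b1, Ctsq, Ctsj and Prl4a1 were at 0 in the members. Members with these RNAs were most frequent at E5.5. Their part in the results was not tested, and the main counts are given with and without these members. The uterine epithelium list reached 5 per 10000 in 351, 186 and 254 members, against 79, 36 and 133 visceral endoderm cells, almost wholly through Klf5 and Elf3, while Lcn2 and Sprr2f were at 0 and Ltf at 0, 0 and 0.308 CPM. Uterine stroma (0.277, 0.327 and 0.338 per 10000) and blood (0.0744, 0.0876 and 0.0554 per 10000) were close to nothing, with Hoxa11, Col3a1, Postn, Ptprc and the haemoglobin genes at 0 in the members of all 3 libraries. The endothelium list summed to 1.22, 1.05 and 1.16 per 10000 in parietal endoderm, against 0.753, 0.719 and 0.775 in visceral endoderm, with Cldn5 and Emcn at 0. The epiblast list summed to 7.00, 4.14 and 7.57 per 10000 in parietal endoderm, against 13.2, 10.4 and 10.8 in visceral endoderm. The visceral endoderm list summed to 67.7, 53.1 and 30.7 per 10000 in parietal endoderm, against 106, 103 and 80.7 in visceral endoderm. Scrublet marked 28, 10 and 34 members as doublets. Pairs of these libraries shared 6 to 12 kept barcodes, and none was a member in both.

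Against visceral endoderm, the matrix programme of the members came with its processing enzymes, a set of receptors and regulators, and lower RNA of secreted carriers. Of 8838 genes measured at E5.0 (10 CPM or more in either class), 755 (8.54%) differed at least 2-fold, as ratios of CPM plus 10: 348 (3.94%) were higher in parietal endoderm and 407 (4.61%) lower. At E5.25, 9.56% of 9075 genes differed, 4.48% higher and 5.08% lower, and at E5.5, 6.84% of 8994 genes did, 2.96% higher and 3.88% lower. Without members that had trophoblast or giant cell markers, 374, 436 and 357 genes were higher and 436, 499 and 361 lower. Among members with a matrix sum of 100 or more, a limit chosen after the values were seen, 494, 548 and 500 were higher and 633, 665 and 652 lower. Of 8556 genes measured in all 3 libraries, 230 (2.69%) were higher and 249 (2.91%) lower in every one. The classes were defined by RNA, so these counts describe their difference and do not test it.

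Genes that prepare collagen for export were higher, and 2 of their upstream sequences are printed first because they show a motif found in 7 genes of the list. P4ha1, a catalytic subunit of collagen prolyl hydroxylase, lies at chr10:59323296-59373304 on the plus strand of GRCm38, and Serpinh1, the collagen chaperone, at chr7:99345376-99353239 on the minus strand. The 250 bases before the RefSeq starts (GRCm38.p6) are at chr10:59323046-59323295 and chr7:99353240-99353489, written 5′ to 3′ on the strand of the gene. Capitals mark the match to ACGTG, searched on both strands, which reads CACGT where it lies on the other one.
P4ha1: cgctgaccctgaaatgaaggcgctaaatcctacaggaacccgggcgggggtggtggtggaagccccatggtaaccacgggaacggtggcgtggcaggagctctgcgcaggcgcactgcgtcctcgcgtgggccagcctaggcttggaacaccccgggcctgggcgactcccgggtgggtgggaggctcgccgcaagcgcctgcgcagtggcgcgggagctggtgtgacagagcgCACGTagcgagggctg
Serpinh1: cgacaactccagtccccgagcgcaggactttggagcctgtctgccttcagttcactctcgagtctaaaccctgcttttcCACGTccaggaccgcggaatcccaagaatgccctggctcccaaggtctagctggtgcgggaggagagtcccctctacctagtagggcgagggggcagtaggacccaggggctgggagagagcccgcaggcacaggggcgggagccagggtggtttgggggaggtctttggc
The match begins 16 bases before the start of P4ha1 and 171 bases before that of Serpinh1. ACGTG is the core letters of the hypoxia response element, and CACGTG-type sites of other factors hold it too. It occurred in 16.6% of 32851 promoter windows of this length, in 7 of 17 windows of the collagen list (41.2%, 14 of 22 genes had a window) and in 4 of 24 windows of the named higher genes (16.7%, 13 of 20 genes had one). Of the other motifs searched on both strands, TGATAA or AGATAA (the letters GATA factors bind) was in 0 of 17 collagen list windows and 16.6% of all windows. CCAAT was in 6 of 17 (35.3%) and 33.8% of all windows. A match is a run of letters and not a shown binding site.

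In the collagen list 15 of 22 genes were measured. In all 3 libraries 8 were at least 2-fold higher in parietal endoderm and none was lower, against 2.69% and 2.91% of all genes. The median log2 ratio was 1.13 (0.59 to 1.64), 1.38 (0.81 to 2.01) and 1.27 (0.63 to 1.78) with its 95% order-statistic interval over the genes, against -0.04, -0.02 and -0.02 over all measured genes. Without members that had trophoblast or giant cell markers the list medians were 1.21, 1.43 and 1.38. Serpinh1 had 3889, 4059 and 3311 CPM in parietal endoderm, against 1245, 1003 and 824 CPM in visceral endoderm, and 49.2, 46.9 and 68.0 CPM in epiblast cells.

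The lysyl hydroxylase Plod2, at chr9:92542223-92608428, had 1343, 1438 and 844 CPM in parietal endoderm, against 101, 110.0 and 108 CPM in visceral endoderm, which made it 13.2-fold (12.7 to 13.8), 13.1-fold (12.4 to 13.7) and 7.82-fold (7.22 to 8.47) higher. The prolyl hydroxylase subunit P4ha2 had 225, 257 and 187 CPM in parietal endoderm, against 7.32, 4.91 and 3.97 CPM in visceral endoderm. Its paralogue P4ha1 had 589, 672 and 459 CPM in parietal endoderm, against 184, 167 and 149 CPM in visceral endoderm. P4ha2 was thus the member of the pair that visceral endoderm nearly lacked, while P4ha1 was present in both. Of the other genes higher in all 3 libraries, Plod1, P3h1 and P3h4 are hydroxylases or their partner. Loxl2, which crosslinks collagen, had 336, 422 and 223 CPM in parietal endoderm, against 69.2, 77.4 and 57.8 CPM in visceral endoderm. P4hb, Ppib, Crtap and Tmem38b had log2 ratios between 0.38 and 0.82, Colgalt1 and P3h2 were also under 2-fold in every library, and Lox had no UMI in the members.

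The general secretory machinery differed less. The chaperone and unfolded protein response genes (22, 21 and 22 measured) had median log2 ratios of 0.60 (0.34 to 0.84), 0.81 (0.35 to 0.95) and 0.62 (0.22 to 0.69), with none of the 21 measured in all 3 libraries at 2-fold or more in each. Hspa5, the main chaperone of the endoplasmic reticulum, had 1407, 1059 and 863 CPM in parietal endoderm, against 675, 461 and 518 CPM in visceral endoderm. The 24 genes of vesicle export had medians of 0.31 (0.00 to 0.66), 0.41 (0.17 to 0.81) and 0.30 (-0.09 to 0.43). Kdelr3, a retrieval receptor for escaped chaperones, was the 1 gene of that list higher by 2-fold in every library, against 2.69% of all genes. Kdelr3 had 177, 168 and 144 CPM in parietal endoderm, against 54.1, 30.6 and 30.8 CPM in visceral endoderm. Mia3, which loads collagen into vesicles, had log2 ratios of 0.41, 0.46 and 0.37.

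Basement membrane genes outside the rule split. Of 13 measured in all 3 libraries out of 34 listed, 4 were higher and 2 lower in every one, against 2.69% and 2.91% of all genes. Nid1, the linker of laminin and collagen IV networks, had 248, 421 and 373 CPM in parietal endoderm, against 51.5, 55.8 and 51.2 CPM in visceral endoderm. Perlecan (Hspg2) had 449, 355 and 229.8 CPM in parietal endoderm, against 62.6, 44.1 and 44.7 CPM in visceral endoderm. Sparc, a collagen-binding glycoprotein, and Tinagl1 were the other two higher genes. Tinagl1 had 277, 435 and 462 CPM in parietal endoderm, against 70.6, 45.0 and 57.7 CPM in visceral endoderm. Nid2 leaned the other way, at 134, 125 and 114 CPM in parietal endoderm, against 178, 181 and 164 CPM in visceral endoderm. The laminin chain Lama5 and the fibulin Fbln1 were the 2 lower genes, with Lama5 at 12.2, 13.0 and 24.9 CPM in parietal endoderm, against 58.0, 68.3 and 77.5 CPM in visceral endoderm. The collagen IV genes Col4a3 to Col4a6 stayed below 1 CPM in the members, so the collagen IV RNA was that of Col4a1 and Col4a2. The RefSeq starts of this pair lie 21 bases apart on opposite strands, and the genes overlap there.

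**Figure D2:**
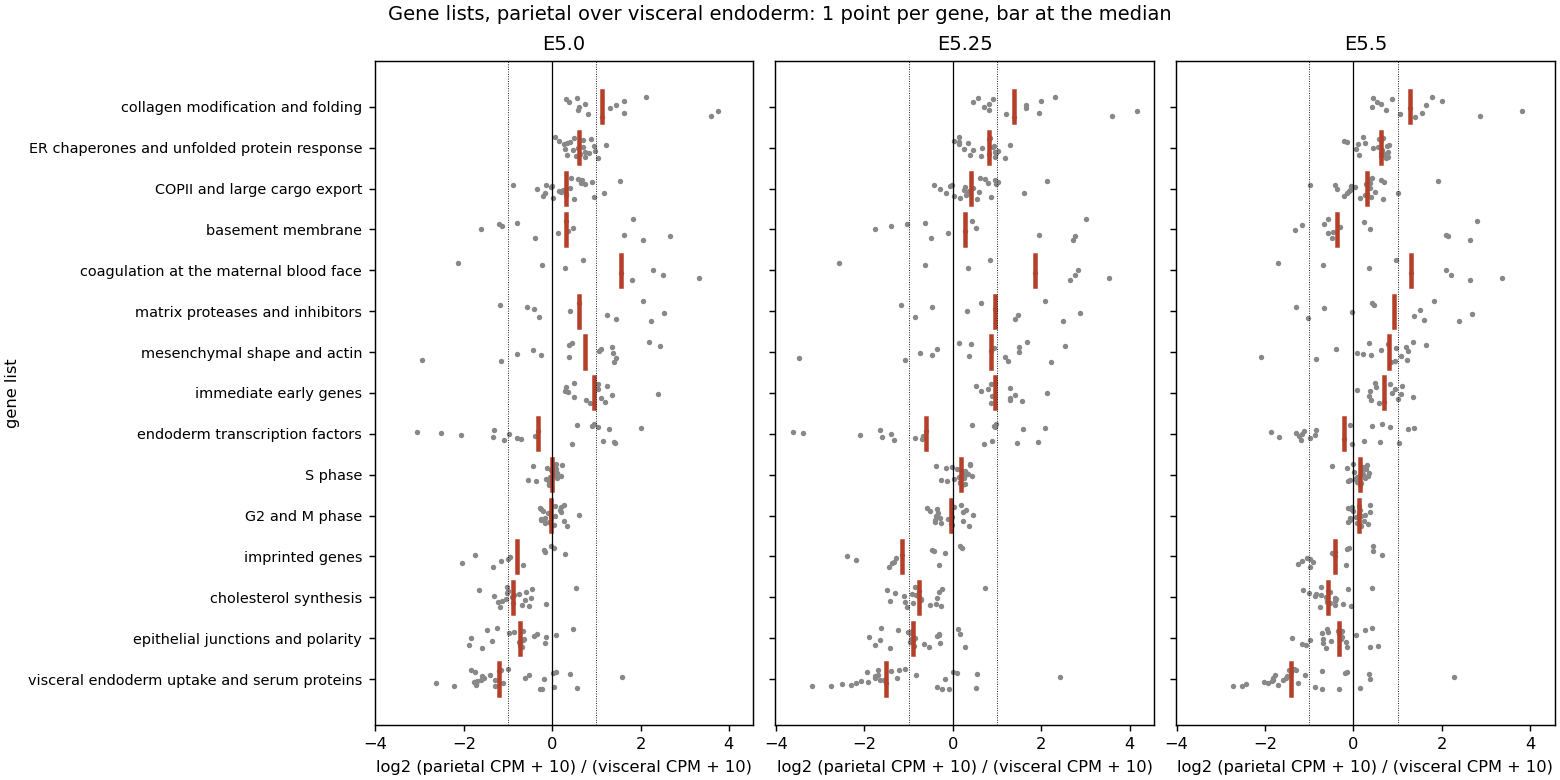
Each grey point is a gene measured in the list named at left, with its log2 ratio of parietal over visceral endoderm (CPM plus 10) on the x axis, and the red bar is the median. Dotted lines mark 2-fold. The collagen list lies right of 0 in all 3 panels and the serum protein list has medians of -1.20, -1.52 and -1.42.

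The 20 genes with the largest consistent excess were taken by the smallest log2 ratio over the 3 libraries, outside the rule genes. Arhgap6, a GTPase-activating protein, led them with 1442, 2662 and 1559.6 CPM in parietal endoderm, against 36.0, 56.4 and 55.2 CPM in visceral endoderm. It was 40.1-fold (37.6 to 42.7), 47.2-fold (44.4 to 50.3) and 28.3-fold (25.5 to 31.3) higher, and epiblast cells had 10.5, 17.5 and 16.4 CPM and giant cells 5.99, 6.25 and 11.2 CPM. The gene spans chrX:168795099-169304435 on the plus strand and overlaps Amelx and Hccs on the other strand. No source used here says if counting took strand into account, and whether RNA of these genes entered the count was not checked.

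Epas1, a hypoxia-inducible factor subunit, had 396, 569 and 361 CPM in parietal endoderm, against 6.29, 8.46 and 9.73 CPM in visceral endoderm. The listed hypoxia and glycolysis genes did not lean higher as a group. The list leaves out P4ha1, P4ha2, Plod2 and Loxl2, which were counted in the collagen list. Whether Epas1 acts on any of these genes was not tested. Of 23 measured hypoxia and glycolysis genes, 1 (Egln3) was higher and none lower by 2-fold in all 3 libraries. Over all genes these shares were 2.69% and 2.91%. The list medians were -0.23 (-0.47 to 0.36), -0.20 (-0.34 to -0.06) and -0.12 (-0.38 to 0.30). Robo2, a receptor for Slit proteins, had 154, 288 and 190.1 CPM in parietal endoderm, against 1.58, 6.27 and 2.05 CPM in visceral endoderm. Lifr, the receptor for leukaemia inhibitory factor, had 672, 675 and 417 CPM in parietal endoderm, against 22.2, 24.7 and 23.7 CPM in visceral endoderm. Epas1, Robo2 and Lifr were each under 20 CPM in both epiblast and giant cells of every library.

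The remaining named genes included secreted regulators and membrane proteins. The activin antagonist follistatin (Fst) had 425, 616 and 412 CPM in parietal endoderm, against 29.5, 30.8 and 24.1 CPM in visceral endoderm. Cryab, a small heat shock protein, had 207, 156 and 115 CPM in parietal endoderm, against 5.5, 2.82 and 3.42 CPM in visceral endoderm. The heparan sulfate sulfotransferase Hs3st1 had 295, 345 and 279 CPM in parietal endoderm, against 18.0, 12.5 and 12.5 CPM in visceral endoderm. Giant cells carried some Hs3st1 as well, at 60.2, 36.8 and 24.4 CPM, while the other named higher genes stayed under 20 CPM there. The potassium channel gene Kcnq5, the formin Fhod3, the chemerin receptor Cmklr1, the complement inhibitor Serping1, the growth factor Nrg2, the homeobox factor Meis1, the peptidase Mme and the lysophosphatidic acid receptor Lpar3 completed the set. Their levels ranged from 68.3 to 291 CPM in parietal endoderm and from 0.992 to 34.1 CPM in visceral endoderm. Cryab and Stra6 overlap Hspb2 and Ccdc33 on the other strand, and Timp2 overlaps Cep295nl on its own.

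**Figure D3:**
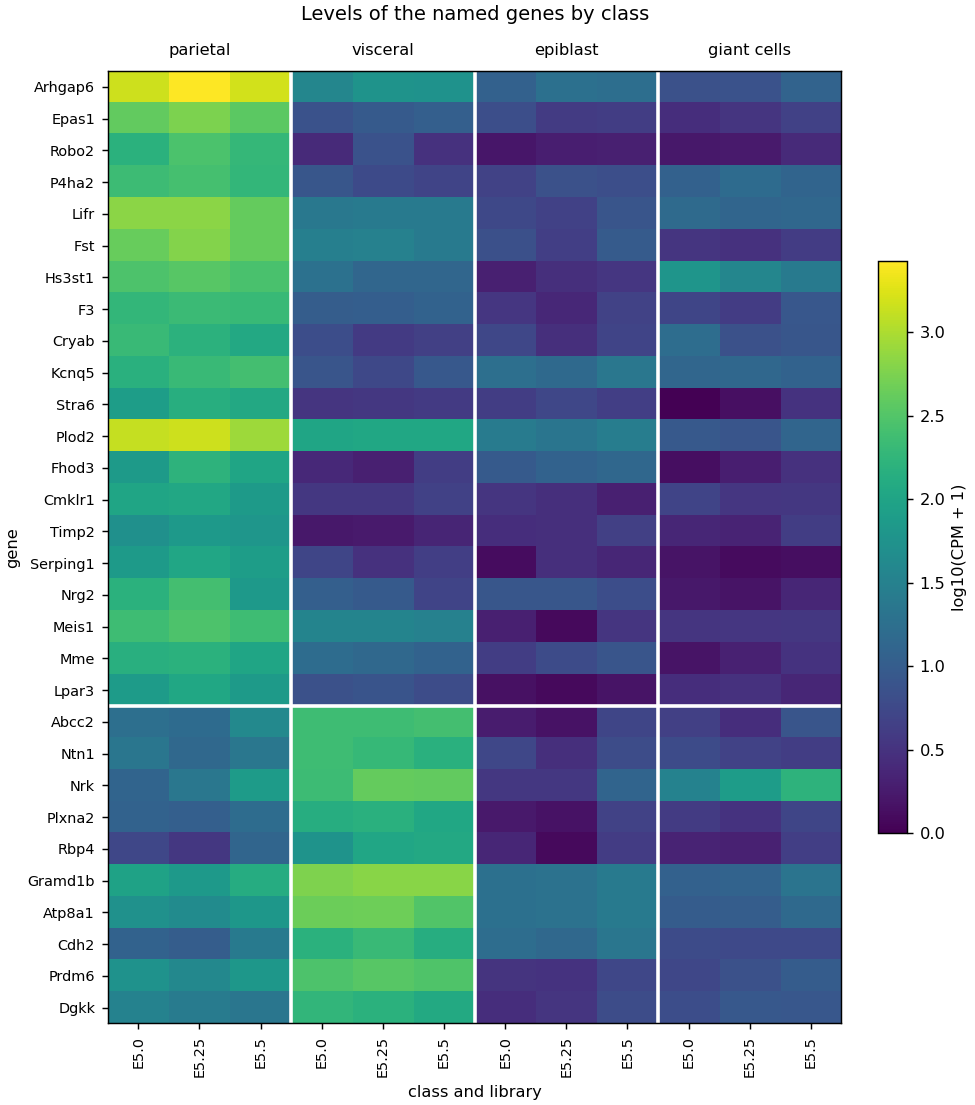
Rows are the 20 higher and, under the white line, the 10 lower named genes, and columns are the classes with their 3 libraries each. Colour is log10 of CPM plus 1. Arhgap6 is the brightest row, at 1442, 2662 and 1559.6 CPM in parietal endoderm, and most of the upper rows are dark in all other classes.

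Shares of cells were compared after each cell was thinned to 3000 UMIs, which left out 0, 2 and 173 parietal endoderm cells and 3, 13 and 348 visceral endoderm cells as too shallow. Epas1 was seen in 60% (55.8 to 64.1), 70.5% (65.1 to 75.5) and 56.2% (51.8 to 60.6) of parietal endoderm cells, against 1.60%, 2.60% and 2.73% of visceral endoderm cells. Epiblast cells, which should lack it and were used to gauge free RNA, had it in 1.47%, 1.08% and 1.11%. Without thinning its shares were 88.5%, 90.9% and 62.0% in parietal endoderm and 8.03%, 11.1% and 4.35% in visceral endoderm. Arhgap6 was seen in 70.0% (66.0 to 73.8), 80.6% (75.8 to 84.9) and 74.9% (70.8 to 78.6) of parietal endoderm cells, against 9.42%, 14.3% and 13.1% of visceral endoderm cells and 2.95%, 3.23% and 5.16% of epiblast cells. Robo2 was seen in 29.8%, 47.3% and 33.2% of parietal endoderm cells, against 0.285%, 1.39% and 0.636% of visceral endoderm cells. These genes were thus carried by a large share of members and not by a few cells. Thbd was seen in fewer, 8.73%, 17.5% and 18.7% of parietal endoderm cells, against 0.0571%, 0.260% and 0.727% of visceral endoderm cells.

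Signalling receptors and ligands went both ways. Of 28 genes of that list measured in all 3 libraries, 5 were higher in every one (Pth1r, Pdgfra, Fgf3, Fst and Stra6) and 4 lower, Fgf8, Id3 and Fzd5 among them, against 2.69% and 2.91% of all genes. Pth1r, the receptor through which parathyroid hormone-related protein promotes parietal endoderm formation, had 483, 583 and 302 CPM in parietal endoderm, against 81.3, 107 and 90.0 CPM in visceral endoderm. The gene of that ligand, Pthlh, was at 0.757, 0 and 0 CPM in parietal endoderm. Fgf3, a growth factor, was low in parietal endoderm and close to absent in visceral endoderm, with 31.2, 30.3 and 13.8 CPM in parietal endoderm, against 0.206, 0.157 and 0.411 CPM in visceral endoderm. Fgf8 had 7.06, 0.710 and 9.54 CPM in parietal endoderm, against 99.1, 74.3 and 55.3 CPM in visceral endoderm. Id3, a common target of BMP signalling, had 37.8, 39.5 and 83.7 CPM in parietal endoderm, against 118, 168 and 204 CPM in visceral endoderm.

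A retinol receptor and its carrier were divided between the endoderms. Stra6, the membrane receptor that takes up retinol from its carrier, had 80.5, 140.3 and 116 CPM in parietal endoderm, against 2.41, 2.61 and 2.88 CPM in visceral endoderm. The carrier itself, Rbp4, had 4.29, 2.60 and 12 CPM in parietal endoderm, against 56.8, 105 and 117 CPM in visceral endoderm. The receptor was thus the higher gene in parietal endoderm and the carrier the lower one.

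Of 9 clotting genes measured in all 3 libraries, 5 were at least 2-fold higher in every one (Thbd, F3, Tfpi, Anxa5 and F2r) and 1 was lower (Cd59a, a complement regulator), against 2.69% and 2.91% of all genes. The list medians were 1.55 (-0.24 to 2.5), 1.86 (-0.62 to 2.83) and 1.30 (-0.70 to 2.63), with intervals that all span 0. Tissue factor (F3), which starts clotting, had 182, 216 and 203 CPM in parietal endoderm, against 9.18, 9.45 and 10.8 CPM in visceral endoderm. Its inhibitor Tfpi had 872, 870.1 and 524 CPM in parietal endoderm, against 146, 120.1 and 106 CPM in visceral endoderm. The thrombin receptor F2r had 136, 204 and 109.5 CPM in parietal endoderm, against 20.0, 20.1 and 17.9 CPM in visceral endoderm. Both the starter of the cascade and its inhibitor were therefore higher in parietal endoderm. Among 11 measured proteases and inhibitors, Plat, Plaur, Timp1, Timp2 and Htra1 were higher and the lysosomal protease Ctsb lower in every library. Timp2 had 51.8, 69.6 and 62.4 CPM in parietal endoderm, against 0.653, 0.783 and 1.23 CPM in visceral endoderm.

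The genes of the visceral endoderm programme outside the rule were lower in the main, but not all alike. Of 29 measured in all 3 libraries, 17 were at least 2-fold lower in parietal endoderm in every one and 1 (S100g, a calcium-binding protein) was higher. Over all genes these shares were 2.91% and 2.69%. The median log2 ratio was -1.20 (-1.61 to -0.27), -1.52 (-1.75 to -0.36) and -1.42 (-1.78 to -0.72). Apoe had 354, 383 and 316 CPM in parietal endoderm, against 1232, 1475 and 1309 CPM in visceral endoderm. Alpha-fetoprotein (Afp) had 2.14, 1.42 and 16.6 CPM in parietal endoderm, against 19.6, 66.8 and 166 CPM in visceral endoderm.

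Uptake receptors differed less. Lrp2 (megalin) had 2417, 1969 and 947 CPM in parietal endoderm, against 2922, 2091 and 1185 CPM in visceral endoderm. Its partner Amn had 872, 798 and 539 CPM in parietal endoderm, against 1023, 949 and 894 CPM in visceral endoderm. Dab2, the adaptor for these receptors, had log2 ratios of 0.04, -0.36 and -0.88. Cubn, a rule gene on the visceral side, still had 3163, 2244 and 1086 CPM in parietal endoderm, against 2867, 2635 and 1876 CPM in visceral endoderm. Lrp2 and Amn, outside the rule, were thus below the visceral level in all 3 libraries but by under 2-fold, while Apoe was lower by 2-fold or more in each.

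**Figure D4:**
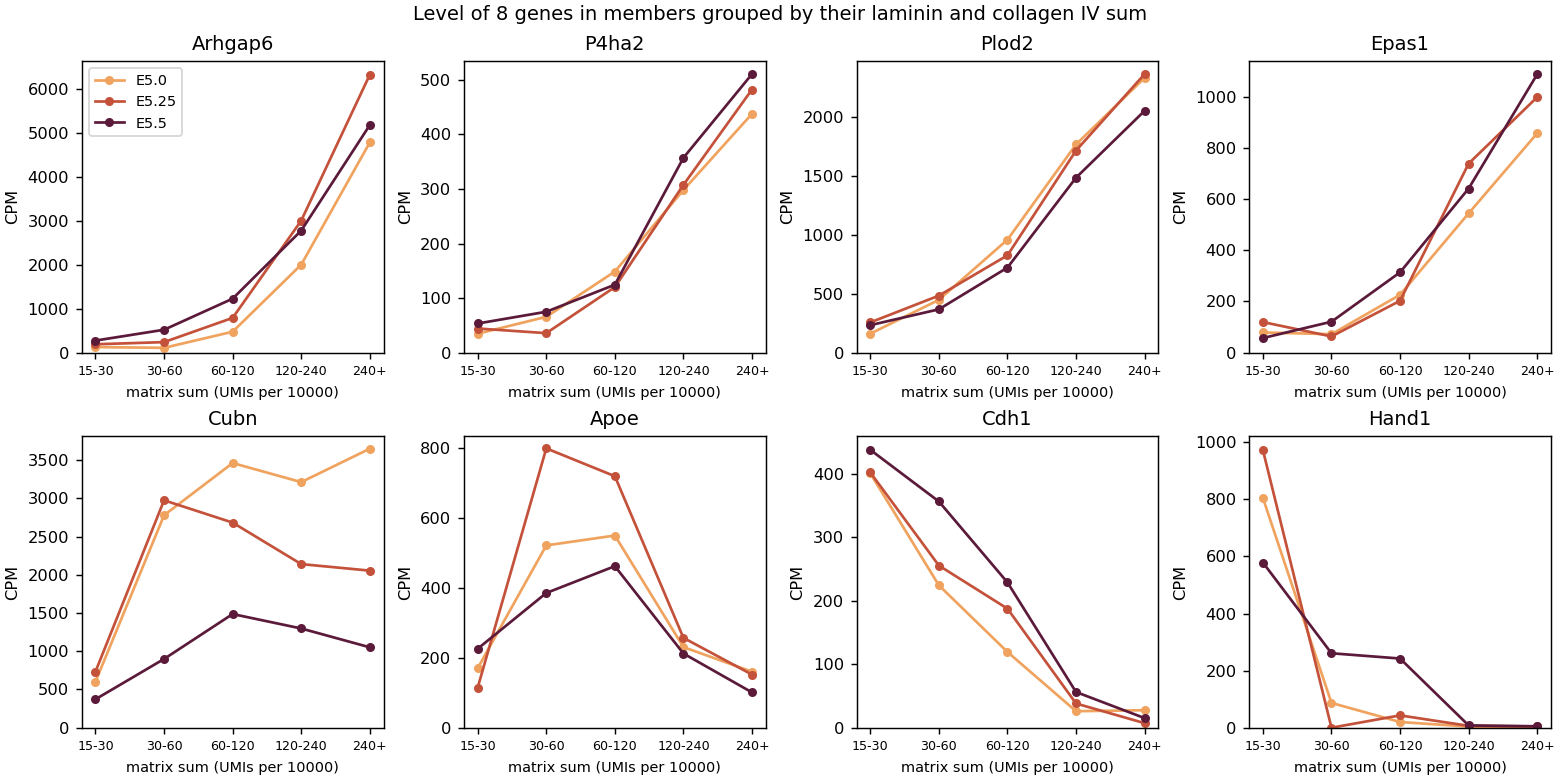
Members were grouped by matrix sum (x axis, UMIs per 10000) and each point is the CPM of the gene in a group of 1 library, coloured by stage. Arhgap6, P4ha2, Plod2 and Epas1 are highest at 240 or more in all 3 libraries, Cdh1 and Hand1 are highest in the lowest group, and Cubn and Apoe peak in a middle group except Cubn at E5.0.

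Other genes with the largest deficits were Abcc2, an organic anion exporter, Ntn1, the guidance protein netrin, Nrk, a kinase, Plxna2, a semaphorin receptor, Gramd1b, a sterol carrier, Atp8a1, a lipid flippase, Cdh2 (N-cadherin), Prdm6 and Dgkk. Abcc2 had 16.9, 14.7 and 40.0 CPM in parietal endoderm, against 229, 229 and 248 CPM in visceral endoderm. Cdh2 had 11.1, 9.23 and 24.0 CPM in parietal endoderm, against 153, 206 and 135 CPM in visceral endoderm. Cdh2 is a mesenchymal cadherin elsewhere, and it was the visceral endoderm that carried it.

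Of 21 endoderm transcription factors measured in all 3 libraries, 3 were at least 2-fold higher in parietal endoderm in every one and 4 lower, against 2.69% and 2.91% of all genes. The list medians were -0.32 (-1.08 to 1.03), -0.60 (-1.41 to 0.96) and -0.21 (-1.17 to 0.61). Gata4 had log2 ratios of 0.46, 0.70 and -0.02. Gata6, Klf4 and Klf5 were the higher ones, with Gata6 at 573, 523 and 342 CPM in parietal endoderm, against 207, 184 and 162 CPM in visceral endoderm. Sox7 had 211, 249 and 81.8 CPM in parietal endoderm, against 73.1, 57.7 and 50.1 CPM in visceral endoderm. Hnf4a, Foxa1, Otx2 and Lhx1 were the lower ones. Hnf4a, a regulator of liver-type secretion, had 46.7, 31.7 and 25.8 CPM in parietal endoderm, against 134, 116 and 105 CPM in visceral endoderm. Of 10 measured anterior visceral endoderm genes 6 were lower in every library, and none was higher.

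Shape and adhesion genes differed in part, without vimentin. Of 16 measured shape and actin genes, Tagln2, Tpm4, Anxa2 and S100a11 were among those at least 2-fold higher in every library, and Cdh2 was lower. Snai1, a repressor of E-cadherin, had 41.6, 70.5 and 32.0 CPM in parietal endoderm, against 9.52, 7.26 and 11.9 CPM in visceral endoderm. E-cadherin (Cdh1) had 93.0, 105 and 234 CPM in parietal endoderm, against 302, 297 and 369 CPM in visceral endoderm. In the list of epithelial junctions, Cldn7 and Crb3 were the 2 of 21 genes lower by 2-fold in all 3 libraries, and none was higher. The list leaned lower, with median log2 ratios of -0.72 (-1.24 to -0.40), -0.89 (-1.02 to -0.36) and -0.34 (-0.69 to -0.16). Over all genes 2.91% were lower and 2.69% higher in all 3 libraries, to be read beside each count of this paragraph. Among adhesion linkers Parva, which ties integrins to actin, was the 1 of 14 higher in every library, with 68.1, 69.1 and 59.4 CPM in parietal endoderm, against 5.91, 6.32 and 12.7 CPM in visceral endoderm. In the heparan sulfate list Ext1, which builds the chains, was higher and the glypicans Gpc3 and Gpc4 were lower in every library.

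Cell cycle genes hardly differed. None of the 22 S phase or 21 G2 and M phase genes reached 2-fold in any library, and the medians were -0.01 (-0.07 to 0.08), 0.20 (0.03 to 0.28) and 0.15 (0.01 to 0.22) and -0.02 (-0.16 to 0.19), -0.04 (-0.36 to 0.18) and 0.11 (-0.05 to 0.17). Ccnd2 was the exception among cyclins, with 27.1, 24.4 and 24.9 CPM in parietal endoderm, against 0.516, 0.522 and 1.23 CPM in visceral endoderm. Btg1 and Btg2, which restrain proliferation, were higher by 2-fold in all 3 libraries. Cholesterol synthesis genes leaned lower, with medians of -0.88 (-1.05 to -0.59), -0.77 (-1.03 to -0.37) and -0.57 (-0.74 to -0.41) over 21 measured genes, and Ebp was at least 2-fold lower in every library. Immediate early genes leaned higher, with medians of 0.95 (0.36 to 1.25), 0.96 (0.80 to 1.41) and 0.69 (0.41 to 1.01), and Jun and Jund were higher in every library. Dissociation is known to raise such genes, and its part was not tested. Of 12 measured imprinted genes, Peg10 and Grb10 were lower in every library and none was higher, against 2.91% and 2.69% of all genes.

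Among the members themselves, most of these genes were graded with the matrix sum. Members were grouped at 15 to 30, 30 to 60, 60 to 120, 120 to 240 and 240 or more per 10000. At E5.0 these groups held 15, 52, 153, 284 and 46 cells, at E5.25 they held 13, 24, 59, 158 and 63, and at E5.5 they held 121, 146, 171, 194 and 50. Along them Arhgap6 had 190.1, 239, 789.6, 2998 and 6315 CPM at E5.25 and 274, 520.2, 1226, 2773 and 5171 CPM at E5.5. Plod2 had 256, 484, 825, 1715 and 2364 CPM at E5.25 and 233, 368, 721, 1485 and 2052 CPM at E5.5. The level was higher in each group than in the one before it in these 4 series. At E5.0 the same held for Plod2 but not for the lowest groups of Arhgap6, at 126 and 109 CPM.

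Over single members the Spearman coefficient with the matrix sum was 0.78, 0.79 and 0.73 for Arhgap6, over 550, 317 and 682 cells. It was 0.75, 0.75 and 0.89 for Serpinh1 and -0.59, -0.60 and -0.55 for Cdh1. The cells share a library and its depth, and each gene shares its denominator with the sum, so these are descriptions. The sum itself had coefficients of -0.27, -0.23 and 0.09 with UMIs per cell.

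The lowest group held the most trophoblast RNA, and at E5.5 the groups up to 120 held it too. Hand1, a trophoblast factor, had 579, 261, 242, 8.04 and 5.05 CPM along the 5 groups at E5.5 and 805, 86.8, 20.0, 4.06 and 1.72 CPM at E5.0. Tfap2c, another trophoblast factor, had 247, 142, 85.6, 5.74 and 0 CPM at E5.5 and 208, 40.2, 10.0, 1.08 and 0 CPM at E5.0. Lrp2 in the lowest group was 694, 977 and 386 CPM, the lowest of the 5 groups in every library. At E5.5 Hand1 remained high up to a sum of 120, and at E5.0 it was highest by far under 30. Members of 15 to 30 per 10000 thus carried trophoblast RNA and less Lrp2 than the other groups. They made up 2.73%, 4.10% and 17.7% of members. At E5.5 the groups of 30 to 60 (21.4% of members) and 60 to 120 (25.1%) carried trophoblast RNA as well. Whether cells of these groups are parietal cells with trophoblast RNA or trophoblast cells with matrix RNA was not tested.

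From E5.0 to E5.5, differences in the whole class have to be read beside these groups. Of 8730 measured genes, 124 (1.42%) were at least 2-fold higher at E5.5 than at E5.0 in parietal endoderm and 56 (0.641%) lower. In visceral endoderm the shares of 8763 genes were 0.708% and 0.217%. The median log2 ratio over all genes with counts was 0.11 in parietal endoderm, and the ratios are to be read relative to it. By the naming rule, which asked for a 3-fold difference unlike that of visceral endoderm, 3 genes were higher at E5.5 (Plet1, Nrk and Ccn2) and 3 lower (Gas6, Dkk1 and Prss35). Plet1 and Nrk are trophoblast genes, at 361, 405 and 602 CPM and 31.6, 77.2 and 164 CPM in giant cells. Nrk was also among the genes with the largest deficits against visceral endoderm, so visceral endoderm carried it as well. The source of the added Nrk RNA in the members was not tested.

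With members restricted to a matrix sum of 100 or more, 372, 238 and 292 cells remained with median sums of 169.5, 203 and 178. Lama1, part of that sum, had 5101, 5796 and 4963 CPM in them, and 54 of 8510 genes (0.635%) were at least 2-fold higher and 40 (0.47%) lower at E5.5 than at E5.0. Here genes were named without the condition on visceral endoderm, which gave 10 higher and 6 lower genes. Some of them may differ in visceral endoderm as well. Hand1 was still 3.69, 5.84 and 42.4 CPM in these cells, so some trophoblast RNA was still present there at E5.5. Leaving out all members with trophoblast or giant cell markers instead gave 68 higher and 25 lower genes.

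Matrix remodelling and surface genes were among the higher ones. Thbd had 39.7, 78.0 and 126 CPM at E5.0, E5.25 and E5.5, 3.16-fold (2.55 to 3.91) higher at the last stage than at the first. The part of trophoblast RNA in this difference was not tested. Ccn2, a matricellular protein, had 34.6, 56.0 and 189 CPM, 5.47-fold (4.48 to 6.68) higher. Cald1, which binds actin and tropomyosin, had 40.7, 95.2 and 199 CPM, 4.88-fold (4.05 to 5.90) higher. The metalloproteinase Adamts9 had 80.7, 205 and 272 CPM, 3.38-fold (2.92 to 3.90) higher. These genes were named for a difference of this kind with E5.25 in between, so the order of their levels describes the choice. The imprinted gene Peg10 had 9.42, 56.0 and 93.1 CPM, and the others were Ptger3, Phlda2, Mt2, Gpc4 and Pclaf.

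Lower genes included ligands and a heat shock protein. Gas6, a ligand of TAM receptors, had 54.9, 24.8 and 6.05 CPM at the 3 stages. Hspb1 had 395, 212 and 121 CPM, and the WNT antagonist Dkk1 had 120.4, 53.3 and 38.6 CPM. Efna3, Ankrd31 and AA986860 were the other lower genes. Fgf10, a growth factor outside that rule, had 436, 442 and 152 CPM, lower at E5.5 than at both earlier stages. Cubn had 3264, 2163 and 1307 CPM in the same cells. Gas6 overlaps Tmem255b on the other strand.

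**Figure D5:**
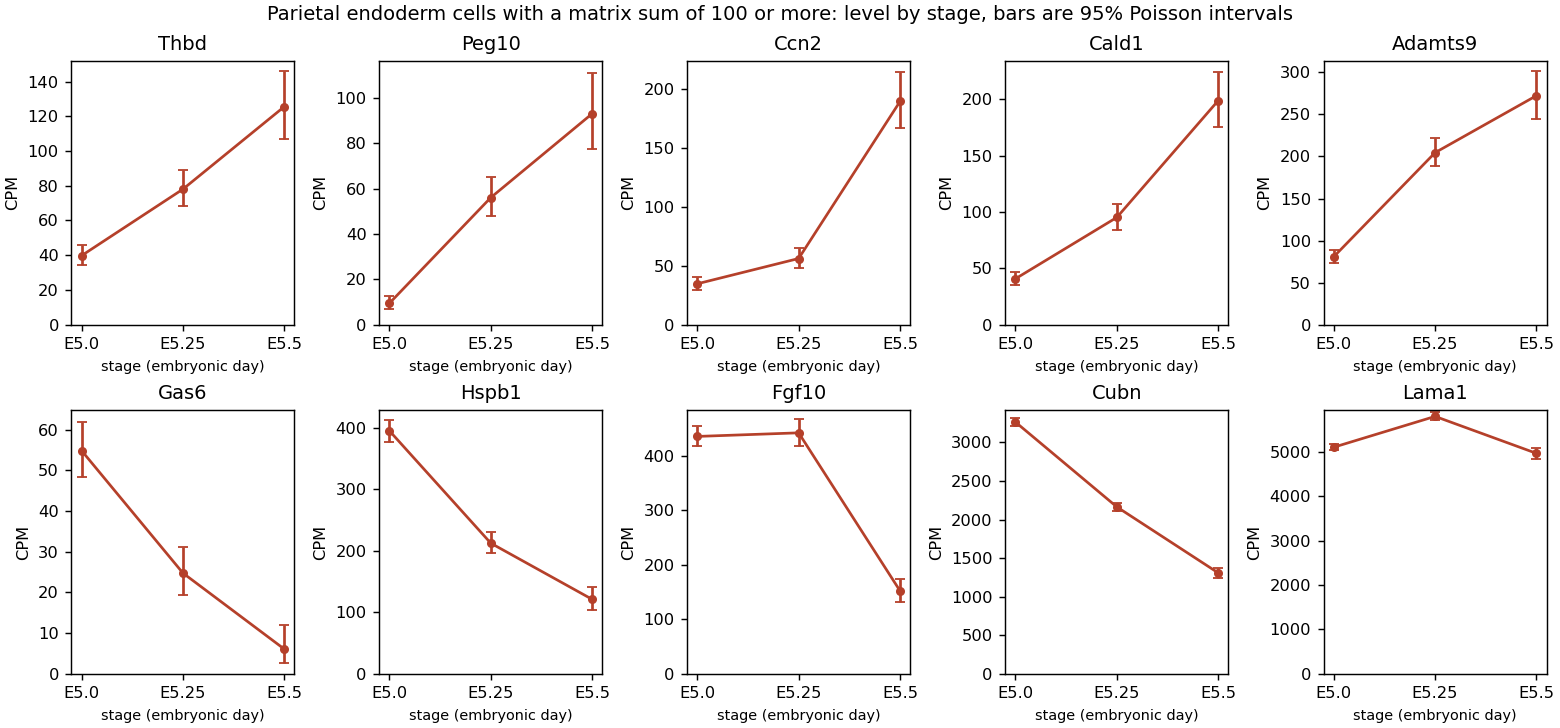
Points are CPM of 10 genes in parietal endoderm cells with a matrix sum of 100 or more, by stage, and bars are 95% Poisson intervals for counting error. Lama1, part of the sum that chose the cells, has 5101, 5796 and 4963 CPM, Thbd, Peg10, Ccn2, Cald1 and Adamts9 are highest at E5.5, and Gas6, Hspb1, Fgf10 and Cubn are lowest there.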

How the data were processed

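The authors deposited unnormalised UMI counts, whole numbers for each gene in each barcode. Cell Ranger 7.1.0 made the matrices, as stated per the file headers. Builds hg38, mm10 and GRCm38 are named, without a role, in the submitters' processing notes. Annotation release, intron counting and strand use are not given in the sources read. Barcodes with at least 1500 genes and at most 15% mitochondrial UMIs were kept (medians of 4641, 4823 and 2324 genes per kept cell at E5.0, E5.25 and E5.5). Counts were summed per class and library and expressed as CPM with Python 3.11.15, numpy 2.4.6, scipy 1.17.1 and pandas 2.3.3. Log2 ratios add 10 to each CPM value and so understate low genes, while folds are plain ratios of CPM. Doublets were scored with Scrublet in scanpy 1.11.5, the highest 0.8% per 1000 kept cells (at most 8%) were marked, and removal was an alternative. Figures used matplotlib 3.10.9. Positions came from GENCODE M21 (GRCm38), which held 32158 (99.6%) of the 32285 gene identifiers. Epiblast cells had an epiblast sum of 15 or more, above both other sums. Giant cells had 15 or more of Prl3d1, Prl2c2, Prl3b1, Hand1 and Cdh5, above the 3 other sums.

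The members, the 21 gene lists and the 9 marker lists were chosen with earlier results of these data known. Named genes were the 20 highest and 10 lowest by the smallest absolute log2 ratio over the 3 libraries at 50 CPM or more in the higher class, leaving out rule, mitochondrial, ribosomal, haemoglobin and unnamed genes. For stages they were those at 50 CPM or more and at least 3-fold different, with E5.25 in between. In the whole class they also had a log2 ratio at least 1 away from that of visceral endoderm (up to 8 each way). At a matrix sum of 100 or more this last condition was not applied. Other genes were named as list members, and Fgf10 and Hand1 at a matrix sum of 100 or more after their values were seen. Alternatives were the pseudocount, CPM minimum, scaling, cell filters, matrix limit, doublet removal and leaving out cells with markers of other types. List genes Pals1 and Crry were not matched, and some list members are not reported here.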

Additional observations from a re-analysis of the deposited data

Results flagged for a closer look

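Outside the compared stages, 191 cells at E4.5 and 393 cells at E4.75 met the same rule, although no such cell was found at E3.5 (0 of 88 kept cells). Adamts9 went opposite ways in the 2 endoderms between E5.0 and E5.5: its log2 ratio was 1.09 in parietal endoderm and -0.82 in visceral endoderm, and this difference was not tested. The levels were 65.1, 155 and 150.1 CPM in parietal endoderm at E5.0, E5.25 and E5.5, against 89.8, 74.7 and 46.6 CPM in visceral endoderm.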

How the results depend on the processing

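No paired analysis was possible because each stage is 1 library. Of 1338 values of named genes under the alternatives, 0 changed sign and 1 went under 2-fold. The genes were chosen from these data for large ratios, so this outcome was largely set by the choice. A CPM minimum does not enter the log2 ratio of a gene, so the values under it equal the main ones. Many sizes moved beyond counting error. Of 90 log2 ratios of parietal over visceral endoderm, 88 did so at a matrix sum of 100 or more and 82 with a pseudocount of 1. Without the cells that had uterine, endothelial or blood markers, 71 did. Leaving out members with uterine, endothelial or blood list sums of 5 or more left 194, 128 and 408 members, mainly through Klf5 and Elf3, and 257 genes lower at E5.0. At E5.5 a minimum of 2500 genes left 193 members, leaving out trophoblast or giant cell markers left 426, and a matrix sum of 100 or more, chosen after seeing the data, left 292. With a pseudocount of 1 the counts higher and lower in parietal endoderm were 546 and 660 at E5.0, 642 and 764 at E5.25, and 454 and 594 at E5.5. A minimum of 50 CPM gave 254 lower genes at E5.0 and 286 at E5.25. At a matrix sum of 100 or more, 633 genes were lower at E5.0, and 500 higher and 652 lower at E5.5. There the serum protein and uptake list had medians of -1.86 at E5.25 and -1.82 at E5.5. The chaperone median at E5.5 was 0.72 at a matrix sum of 30 or more, 0.83 without trophoblast or giant cell markers and 1.06 at 100 or more. For E5.5 over E5.0 in parietal endoderm, the counts were 316 higher and 149 lower with a pseudocount of 1, 68 and 25 without trophoblast or giant cell markers, 54 higher at 50 CPM or more and 54 higher at a matrix sum of 100 or more. The cause of these shifts was not tested. Depth limits the E5.5 library most, at a median of 3880 UMIs per member.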

Other observations

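The cells that met the rule at E4.5 and E4.75 made up 19.7% of 969 and 15.4% of 2548 kept cells, chosen as at the later stages. Whether the rule finds parietal endoderm there, or the primitive endoderm it forms from, was not tested. Cubn, a rule gene on the visceral side, had 3501 and 4535 CPM in them, against 3163, 2244 and 1086 CPM at the later stages. Along the 5 stages beginning with E4.5 and E4.75, Lama1, a rule gene, had 1997, 3053, 3749, 4401 and 2756 CPM in these cells, and Plod2 had 363, 753, 1343, 1438 and 844 CPM. Serpinh1 had 1048, 2461, 3889, 4059 and 3311 CPM. Both collagen processing genes, outside the rule, had UMIs at E4.5. Arhgap6 had 63.9, 192, 1442, 2662 and 1559.6 CPM, Robo2 had 8.10, 24.3, 154, 288 and 190.1 CPM and Thbd had 0, 2.92, 27.2, 58.5 and 68.9 CPM, and these were low or at 0 at E4.5. The E4.5 library came from superovulated females of 4 weeks, with flushed embryos and filtered cells, while those of E4.75 to E5.25 came from females of 7 weeks and were not filtered, so stage, female age and handling cannot be told apart.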
